A study of Saccharomyces cerevisiae with 16 samples.

Results

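Nitrogen limitation was compared with ethanol limitation in the reference strain of Saccharomyces cerevisiae, with ethanol as the carbon source on both sides. The comparison rested on 4 of the 16 arrays of the series, chosen by their titles, and on all 5716 probe sets of the array. In the ethanol-limited group (2 arrays), growth of strain SCE090 was limited by ethanol and ammonium sulfate supplied the nitrogen. In the nitrogen-limited group (2 arrays), the same strain grew on ethanol and ammonium sulfate was limiting. Every sample was total RNA from a chemostat at steady state, a continuous culture fed so that one nutrient is limiting. The sources used here give neither the dilution rate nor the concentrations of ethanol, ammonium and sulfate. The same limitations were also applied to a mutant strain, SCE088, for which the mutated gene is not named in the labels, and both strains were also grown on glucose under glucose or nitrogen limitation. Those arrays entered here only as a shared estimate of the spread between arrays and as 2 side comparisons, the reference strain on glucose and the mutant on ethanol. Whether paired arrays stand for separate cultures is not stated in the labels, and p-values therefore reflect no more than the spread between these arrays, which may be technical.

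When good nitrogen sources are scarce, budding yeast lifts nitrogen catabolite repression. This control acts through GATA factors, activators and repressors, and keeps genes for the uptake and use of poor nitrogen sources silent. Ethanol is oxidised to acetate and acetyl-CoA, and cells living on it need the glyoxylate cycle and gluconeogenesis to make sugars, and respiration to make ATP. Fatty acids are broken down by beta-oxidation in yeast peroxisomes only, and glucose represses that pathway.

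All values below are log2 intensities of a probe set on an array, or differences between such values, taken as nitrogen-limited minus ethanol-limited unless another comparison is named. Errors are standard errors (SE) of the model fit, with n = 2 arrays per group, and every adjusted p comes from limma with Benjamini-Hochberg adjustment over the 5716 probe sets. A probe set was called when its adjusted p was under 0.05, and "rose" and "fell" are used of called probe sets alone. Where 4 levels of a gene are given, the 2 ethanol-limited arrays come first, replicate 1 before replicate 2, and the 2 nitrogen-limited arrays follow. Intensity differs between probe sets for reasons other than RNA amount, so levels were not compared between genes. The arrays sample whole cultures, in which fewer cells with a transcript and less of it per cell cannot be told apart. The median log2 intensity of the 16 arrays lay between 11.91 and 12.01. Values of the 2 ethanol-limited arrays correlated at 0.988 across probe sets and those of the 2 nitrogen-limited arrays at 0.985, with median absolute differences of 0.0863 and 0.0970. Mating-type genes were read as a check on the cells, although the labels give no mating type. The gene of the alpha-factor precursor, MF(ALPHA)1, read 13.43 and 13.47 against 13.73 and 13.72 in the ethanol-limited and nitrogen-limited arrays, and that of the a-factor receptor, STE3, read 12.34 and 12.07 against 12.29 and 12.05. The alpha-factor receptor gene STE2, used by a cells, read 9.45 and 9.58 against 9.79 and 9.64. Of the 7 a-specific genes 1 was called, of the 4 alpha-specific genes 1, and of the 7 haploid-specific genes none, and all read well above the lowest log2 intensity on the arrays. The a-specific protease gene BAR1 fell by 0.46 ± 0.06 (adjusted p = 0.000939), and MF(ALPHA)1 rose by 0.27 ± 0.05 (adjusted p = 0.0088), a call that was lost without ethanol-limited replicate 1 (0.0708) and without nitrogen-limited replicate 1 (0.0581). Their part in the other results was not tested.

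The shift from ethanol to nitrogen limitation changed few transcripts strongly. Of the 5716 probe sets, 469 were called (8.21%), of which 264 were higher under nitrogen limitation (4.62%) and 205 lower (3.59%). The counts of list members below are to be set beside these shares. Differences of at least 1 on the log2 scale were found for 17 of the higher probe sets (0.297% of all) and 11 of the lower ones (0.192%). Of the 469 calls, 340 were smaller than 0.5, and the median absolute difference of the called probe sets was 0.336. The median difference of all probe sets was 0.0161, with quartiles of -0.0575 and 0.0964 and a median SE of 0.0744. The arrays of the 2 groups did not overlap for any of the 469 called probe sets, which was also true of 42.4% of all probe sets. With 1 array left out the count dropped to 240 (ethanol-limited replicate 1), 248 (ethanol-limited replicate 2), 248 (nitrogen-limited replicate 1) or 282 (nitrogen-limited replicate 2), and 102 higher and 75 lower probe sets kept the call in all 4 of these fits. The spread was estimated over all 16 arrays, and a fit on the 4 arrays alone called 16 probe sets and a fit on the 8 arrays of the reference strain 178. A replicate block by the numbers in the sample descriptions, chosen after seeing the data, raised the count to 871. The balance of directions depended on the scaling, with 214 higher and 216 lower under median centring, and 205 higher and 228 lower under quantile normalization.

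**Figure D1:**
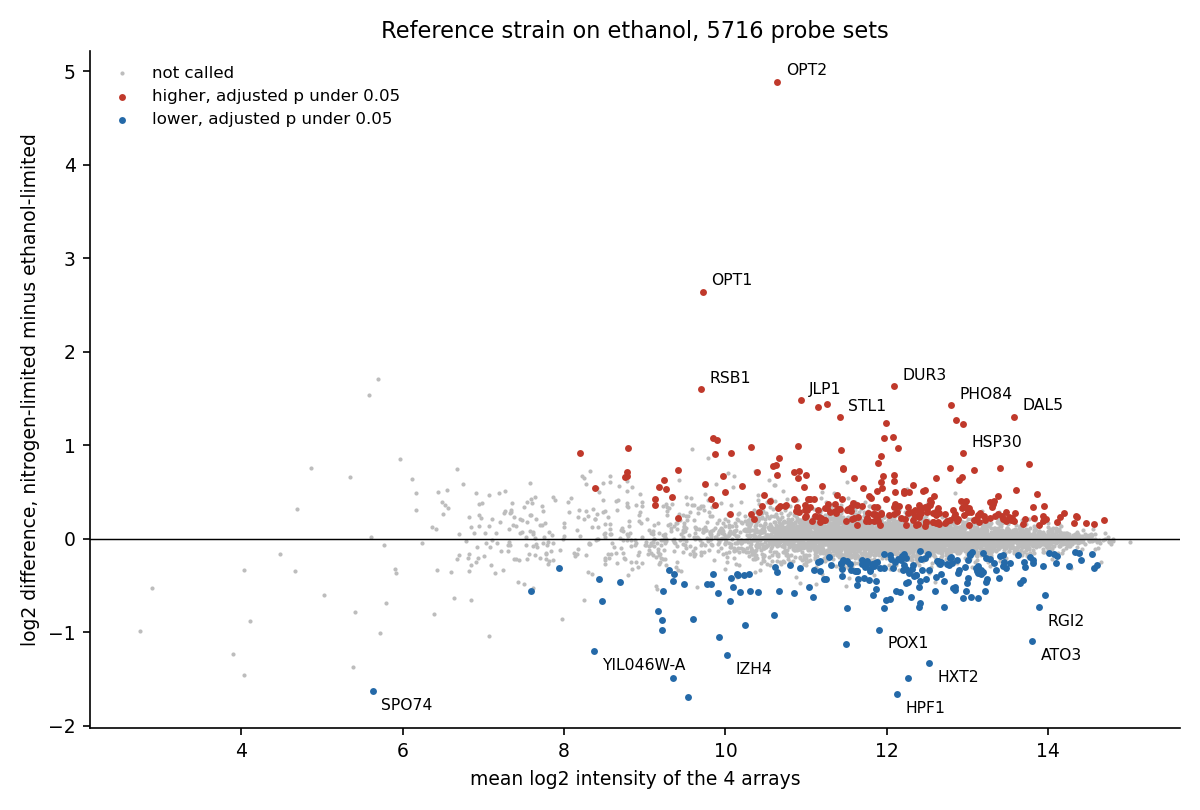
Log2 difference (nitrogen-limited minus ethanol-limited, 2 arrays each) of each of 5716 probe sets against its mean log2 intensity on the 4 arrays; red and blue points were called higher (264) and lower (205), grey points were not called. OPT2 stands apart at a difference of 4.89, most called points lie within 0.5 of 0, and SPO74 lies at the dim end.

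The largest rise on the arrays belonged to OPT2, which encodes an oligopeptide transporter. It read 8.15 and 8.24 on the ethanol-limited arrays and 13.13 and 13.05 on the nitrogen-limited arrays, a rise of 4.89 ± 0.15 or 29.7-fold (adjusted p = 3.44e-08). OPT1, which encodes a transporter of oligopeptides and glutathione, went from 8.25 and 8.56 to 11.03 and 11.06, a rise of 2.64 ± 0.11 (adjusted p = 3.55e-07). For both genes the gap between the groups was many times the spread between replicates. All 4 measured genes of peptide transport were called higher, with a median difference of 1.98 against 0.0161 for all probe sets. They include DAL5, which is also counted in the list of allantoin and urea use. PTR2, the main permease of di- and tripeptides, was among them, at 0.45 ± 0.10 (adjusted p = 0.0276). Its call was lost without ethanol-limited replicate 1 (0.153), ethanol-limited replicate 2 (0.0839) or nitrogen-limited replicate 1 (0.183), and after quantile normalization (0.0761).

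Of 10 measured genes for the use of allantoin and urea 6 rose and none fell, with a median of 0.935, and all 6 kept the call whichever array was left out. The urea permease gene DUR3 read 11.30 and 11.26 under ethanol limitation and 12.91 and 12.91 under nitrogen limitation, a rise of 1.64 ± 0.05 or 3.1-fold (adjusted p = 3.30e-08). The replicate arrays of DUR3 lay close together, and the gap between groups was far wider than their spread. DAL5 went from 12.86 and 12.99 to 14.22 and 14.25 (1.31 ± 0.06, adjusted p = 1.46e-06). The allantoin permease gene DAL4 went from 11.51 and 11.57 to 12.53 and 12.72 (1.09 ± 0.09, adjusted p = 5.00e-05). DCG1, a gene of unknown function under nitrogen catabolite repression, rose by 1.41 ± 0.11, the allantoinase gene DAL1 by 0.99 ± 0.10 and DAL7, a malate synthase gene of the allantoin pathway, by 0.88 ± 0.08. The remaining members were not called, namely the allantoicase gene DAL2 (0.18 ± 0.18), the ureidoglycolate lyase gene DAL3 (-0.26 ± 0.08) and the activator genes DAL81 (0.18 ± 0.10) and DAL82 (0.35 ± 0.15). DAL2 read 13.27 and 12.80 against 13.11 and 13.31, so its groups overlapped.

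Among the 5 genes of the GATA circuit, only that of the repressor DAL80 was called. It read 12.30 and 12.15 on the ethanol-limited arrays and 13.59 and 13.41 on the nitrogen-limited arrays, a rise of 1.27 ± 0.09 (adjusted p = 1.67e-05). The activator genes GLN3 and GAT1 differed by -0.04 ± 0.09 and 0.14 ± 0.05, the repressor gene GZF3 by 0.40 ± 0.25, and URE2, whose product holds Gln3 in the cytoplasm, by -0.02 ± 0.10, none of them called.

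Genes of ammonium uptake and assimilation moved by small amounts. Of 8 measured members 4 were called higher and 1 lower, with a median of 0.175, and leaving out 1 array left 1 or 2 calls. GLT1, the glutamate synthase gene, read 13.78 and 13.76 against 14.12 and 14.13, a rise of 0.35 ± 0.04 (adjusted p = 0.000384), and it alone kept the call whichever array was left out. The high-affinity ammonium permease gene MEP2 differed by 0.21 ± 0.05 (adjusted p = 0.0219), the glutamine synthetase gene GLN1 by 0.18 ± 0.04 (0.0292) and the catabolic glutamate dehydrogenase gene GDH2 by -0.26 ± 0.05 (0.0146). These 3 calls were lost whichever of the 4 arrays was left out, with adjusted p between 0.0676 and 0.17, and GLN1 also lost its call after median centring (0.0648). The permease genes MEP1 and MEP3 were not called (-0.06 ± 0.04 and 0.04 ± 0.07). MEP2 had means of 14.589 under ethanol limitation and 14.795 under nitrogen limitation, near the top of the intensity range of the arrays. Whether differences are compressed there was not tested.

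Amino acid permease genes moved in both directions, with 6 of 21 measured members higher, 3 lower and a median of 0.0754, and with 5 calls in all without nitrogen-limited replicate 1. The acidic amino acid permease gene DIP5 read 11.56 and 11.76 under ethanol limitation and 12.58 and 12.69 under nitrogen limitation, a rise of 0.97 ± 0.08 (adjusted p = 5.05e-05). The broad-range permease gene AGP1 rose by 0.60 ± 0.05 (5.02e-05) and the arginine permease gene CAN1 by 0.57 ± 0.09 (0.0037). The glutamine permease gene GNP1 read 11.02 and 11.01 against 10.29 and 10.10, a fall of 0.82 ± 0.13 (0.00314), and BAP2, a permease gene for branched-chain amino acids, fell by 0.54 ± 0.07 (0.000955). The GABA permease gene UGA4 differed by 0.75 ± 0.19 (adjusted p = 0.0398), which was no longer called without ethanol-limited replicate 2 (0.257) or nitrogen-limited replicate 1 (0.252) or after quantile normalization (0.0547). TAT2, a tryptophan permease gene, differed by -0.58 ± 0.12 (0.0181), a call lost whichever array was left out (0.0544 to 0.11). Nucleobase and nucleoside permease genes, which include DAL4 of the allantoin and urea list, were 4 of 8 higher and none lower, with a median of 0.303. Among them NRT1, for uptake of nicotinamide riboside, went from 9.28 and 9.33 to 10.27 and 10.52 (1.08 ± 0.09, adjusted p = 4.05e-05), and the purine-cytosine permease gene FCY2 rose by 0.39 ± 0.05 (0.00046).

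Genes that break down proline, arginine, GABA and aromatic amino acids gave 2 higher and 2 lower calls among 16 measured members, with a median of 0.0757, and leaving out 1 array left 1 or 2 calls. CAR2, the ornithine transaminase gene of arginine breakdown, read 13.21 and 13.25 against 12.73 and 12.79, a fall of 0.47 ± 0.04 (adjusted p = 0.000127) that held whichever array was left out. The proline oxidase gene PUT1 differed by 0.21 ± 0.05 (0.0333) and the succinate semialdehyde dehydrogenase gene UGA2 by 0.26 ± 0.06 (0.0213), and both lost the call whichever array was left out (0.0607 to 0.194 and 0.0672 to 0.134) and after median centring (0.052 and 0.0521). Vacuolar hydrolase genes held 2 higher calls and 1 lower among 10, with a median of 0.0538. CPS1, the vacuolar carboxypeptidase that frees amino acids from peptides, read 12.27 and 12.54 against 13.15 and 13.17 (0.75 ± 0.08, adjusted p = 0.000267). None of 34 autophagy genes and none of 33 proteasome genes was called, with medians of -0.0275 and -0.00498.

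**Figure D2:**
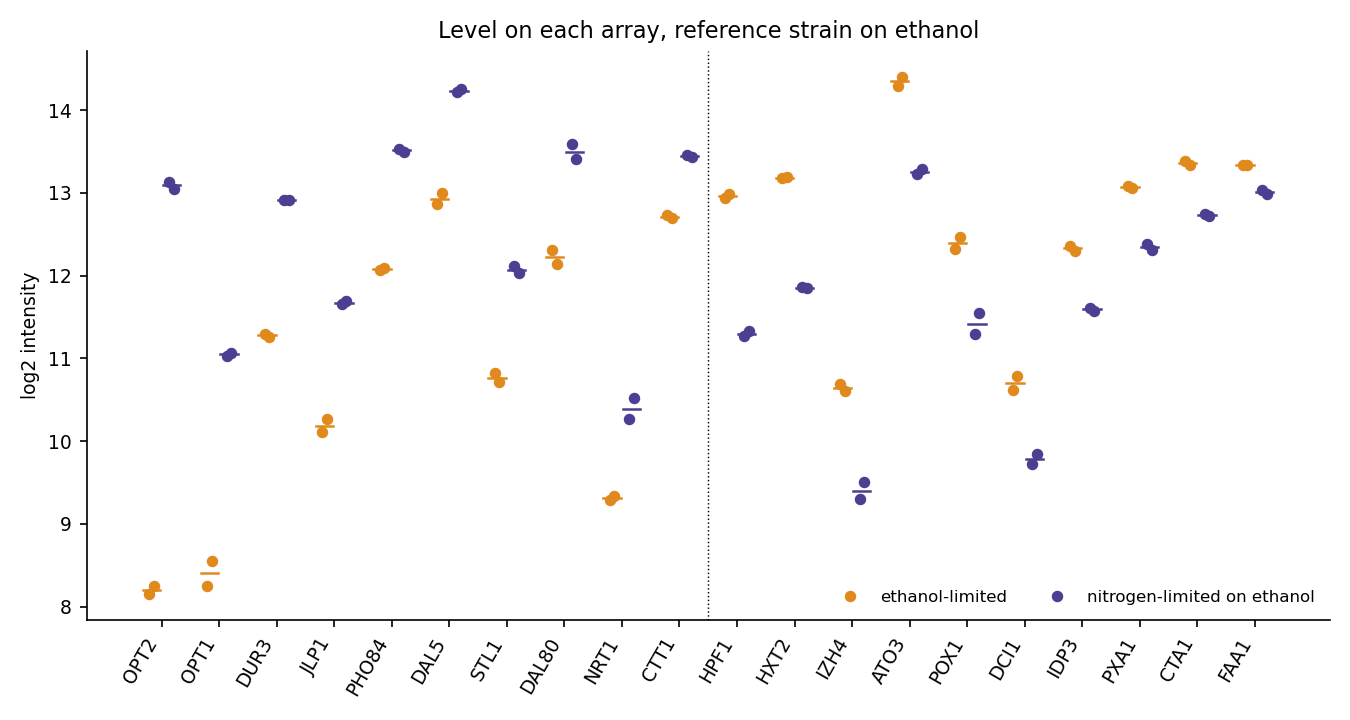
Log2 intensity of 20 genes on each of the 4 arrays of the reference strain on ethanol; dots are arrays, bars are means of 2 arrays, orange is ethanol limitation and purple nitrogen limitation. The 10 genes left of the dotted line read higher and the 10 on the right lower under nitrogen limitation, and in none do the groups overlap. Levels of different genes are not comparable.

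Part of the genes of phosphate uptake and storage rose. PHO84, the high-affinity phosphate transporter gene, read 12.07 and 12.09 on the ethanol-limited arrays and 13.53 and 13.50 on the nitrogen-limited arrays, a rise of 1.43 ± 0.13 or 2.69-fold (adjusted p = 0.000104). GIT1, for uptake of glycerophosphoinositol, went from 9.47 and 9.37 to 10.38 and 10.27 (0.91 ± 0.11, adjusted p = 0.000563). The phosphate list held 7 higher and no lower calls among 18 measured members, with a median of 0.199, and 4 members were called without ethanol-limited replicate 1. SPL2, which encodes a regulator of low-affinity phosphate uptake, differed by 1.06 ± 0.19 (0.00682) and was not called without ethanol-limited replicate 1 (0.0665). PHM6, a phosphate-regulated gene of unknown function, differed by 0.74 ± 0.13 (0.00623) and was not called without ethanol-limited replicate 1 (0.0577) or nitrogen-limited replicate 2 (0.0552). The polyphosphate polymerase genes VTC3 and VTC4 rose by 0.26 ± 0.04 and 0.33 ± 0.05. The repressible acid phosphatase gene PHO5 differed by 0.06 ± 0.10 and was not called.

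Of the 15 largest rises 3 belonged to genes for taking up or releasing sulfur from organic compounds, none of which was on a list. JLP1, the dioxygenase that releases sulfite from sulfonates, read 10.11 and 10.27 against 11.66 and 11.69, a rise of 1.49 ± 0.09 (adjusted p = 6.19e-06). BDS1, a sulfatase of alkyl and aryl sulfates, went from 11.42 and 11.44 to 12.57 and 12.45 (1.08 ± 0.05, adjusted p = 1.46e-06), and YCT1, a cysteine transporter gene, from 11.28 and 11.47 to 12.58 and 12.64 (1.24 ± 0.08, adjusted p = 6.23e-06). The replicates of all 3 genes lay closer together than the groups by a wide margin. The list of sulfate assimilation and methionine synthesis held 7 higher calls and 1 lower among 27, with a median of 0.0792, and its differences were smaller. Its 8 calls dropped to 1 and 3 without replicate 1 and 2 of the ethanol-limited arrays, and to 2 and 5 without replicate 1 and 2 of the nitrogen-limited arrays. MET2, the homoserine acetyltransferase gene, rose by 0.25 ± 0.03 (0.000981) and was the sole member to keep its call whichever array was left out. 

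Genes of fatty acid breakdown were lower under nitrogen limitation. All 21 measured members of the list of beta-oxidation and the carnitine shuttle had a negative difference, 12 of them were called lower and none higher, and the median was -0.264. After quantile normalization the median was -0.283 and 13 members were called lower, and 8 members kept the call whichever array was left out. POX1, the acyl-CoA oxidase gene of the first step, read 12.32 and 12.46 on the ethanol-limited arrays and 11.30 and 11.54 on the nitrogen-limited arrays, a fall of 0.97 ± 0.15 (adjusted p = 0.00292). FOX2, the multifunctional enzyme of the next steps, went from 13.44 and 13.45 to 12.78 and 12.85, a fall of 0.63 ± 0.07 (0.000313). No array of one group overlapped the other for either gene.

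The isomerase genes DCI1 and ECI1, linked to the breakdown of unsaturated fatty acids, fell by 0.92 ± 0.11 (0.000426) and 0.65 ± 0.08 (0.000493). IDP3, the peroxisomal isocitrate dehydrogenase that supplies NADPH for the same acids, read 12.36 and 12.30 against 11.61 and 11.58, a fall of 0.74 ± 0.04 (4.43e-06). PXA1, one subunit of the peroxisomal importer of long-chain fatty acids, went from 13.08 and 13.05 to 12.38 and 12.31, a fall of 0.73 ± 0.05 (1.67e-05). CTA1, the peroxisomal catalase gene, fell by 0.63 ± 0.06 (0.000139). Of the acyl-CoA synthetase genes, FAA1 fell by 0.33 ± 0.03 (0.000226). FAA2 and FAA4 differed by -0.40 ± 0.09 and -0.26 ± 0.06, and both calls were lost without ethanol-limited replicate 1 (0.131 and 0.138) or nitrogen-limited replicate 2 (0.109 and 0.126). The last step, the thiolase gene POT1, differed by -0.24 ± 0.23 and was not called. FAT3, a gene needed for fatty acid uptake that was not on the list, read 12.83 and 12.69 against 12.11 and 12.04, a fall of 0.68 ± 0.07 (0.000197). Of 9 genes that make fatty acids none was called, with a median of -0.00515.

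The enzymes that turn ethanol into sugar precursors moved less. Of 10 genes of the glyoxylate cycle and gluconeogenesis, 4 were called lower and none higher, with a median of -0.121. MDH2, the cytosolic malate dehydrogenase gene, read 14.70 and 14.74 against 14.41 and 14.41, a fall of 0.31 ± 0.03 (adjusted p = 0.000256), and kept its call whichever array was left out. The isocitrate lyase gene ICL1 (-0.17 ± 0.04) and the succinate-fumarate carrier gene SFC1 (-0.29 ± 0.08) lost their calls whichever array was left out, at 0.0618 to 0.123 and 0.155 to 0.2. The acetyl-CoA synthetase gene ACS1 (-0.28 ± 0.05) lost it without ethanol-limited replicate 2 (0.101) or nitrogen-limited replicate 1 (0.0996). The malate synthase gene MLS1 (-0.03 ± 0.03), PCK1 (-0.07 ± 0.08) and FBP1 (-0.22 ± 0.11), the last 2 specific to gluconeogenesis, were not called. MDH2, ICL1 and ACS1 lay near the top of the intensity range in both groups, with nitrogen-limited means of 14.409, 14.455 and 14.461. Whether their differences are compressed was not tested.

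In the list of alcohol, aldehyde and acetate use 3 of 19 genes were higher and 5 lower, with a median of -0.123, and 5 calls were left whichever array was left out. ATO3, of a family of acetate and ammonium transporters, read 14.30 and 14.40 against 13.23 and 13.28, a fall of 1.09 ± 0.08 (adjusted p = 2.16e-05). The main mitochondrial acetaldehyde dehydrogenase gene ALD4 fell by 0.23 ± 0.04 (0.00319), while the cytosolic, stress-related ALD2 rose by 0.30 ± 0.04 (0.00172). The ethanol-oxidising alcohol dehydrogenase gene ADH2 differed by -0.25 ± 0.07 and was not called. PDC6, the minor pyruvate decarboxylase gene, read 13.44 and 13.29 against 14.18 and 14.13 (0.80 ± 0.08, adjusted p = 0.000228). Of the 9 genes of activators of non-fermentable carbon use 1 was called lower and none higher, and that call, ADR1 (-0.22 ± 0.06, adjusted p = 0.0462), was lost whichever array was left out.

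Genes of respiration were called in both directions. The TCA cycle list held 2 higher calls and 1 lower among 16, with a median of 0.0339, and the respiratory chain and ATP synthase list held 1 of each among 38, with a median of 0.0224, against 8.21% called among all probe sets. The respiratory list kept 1 of its 2 calls without replicate 1 or 2 of the ethanol-limited arrays or replicate 2 of the nitrogen-limited arrays. CIT3, a mitochondrial citrate and methylcitrate synthase gene, went from 13.21 and 13.30 to 12.60 and 12.65, a fall of 0.63 ± 0.08 (adjusted p = 0.00083). IDH2, a subunit of mitochondrial isocitrate dehydrogenase, rose by 0.34 ± 0.04 (0.000419), and the cytochrome c gene CYC1 by 0.23 ± 0.04 (0.00405). Of 19 glycolytic genes only TDH1 was called (0.17 ± 0.04, adjusted p = 0.0377), it lost the call after median centring (0.0941) and whichever array was left out (0.127 to 0.172), and the list's median of -0.0026 turned to 0.0145 after quantile normalization. HXT2, a hexose transporter gene, read 13.18 and 13.19 against 11.86 and 11.85, a fall of 1.33 ± 0.06 (7.22e-07), with ethanol as the labelled carbon source in both groups. It was 1 of 2 calls, the other being higher, among 17 hexose transport genes with a median of 0.0749, and 1 call was left without ethanol-limited replicate 2 or nitrogen-limited replicate 1. Storage carbohydrate genes held 3 lower calls and no higher among 20, with a median of -0.0186, led by the glycogen synthase gene GSY2, which fell by 0.33 ± 0.05 (0.00231) and was the one call that held whichever array was left out. Without ethanol-limited replicate 1 it was the only call of that list.

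**Figure D3:**
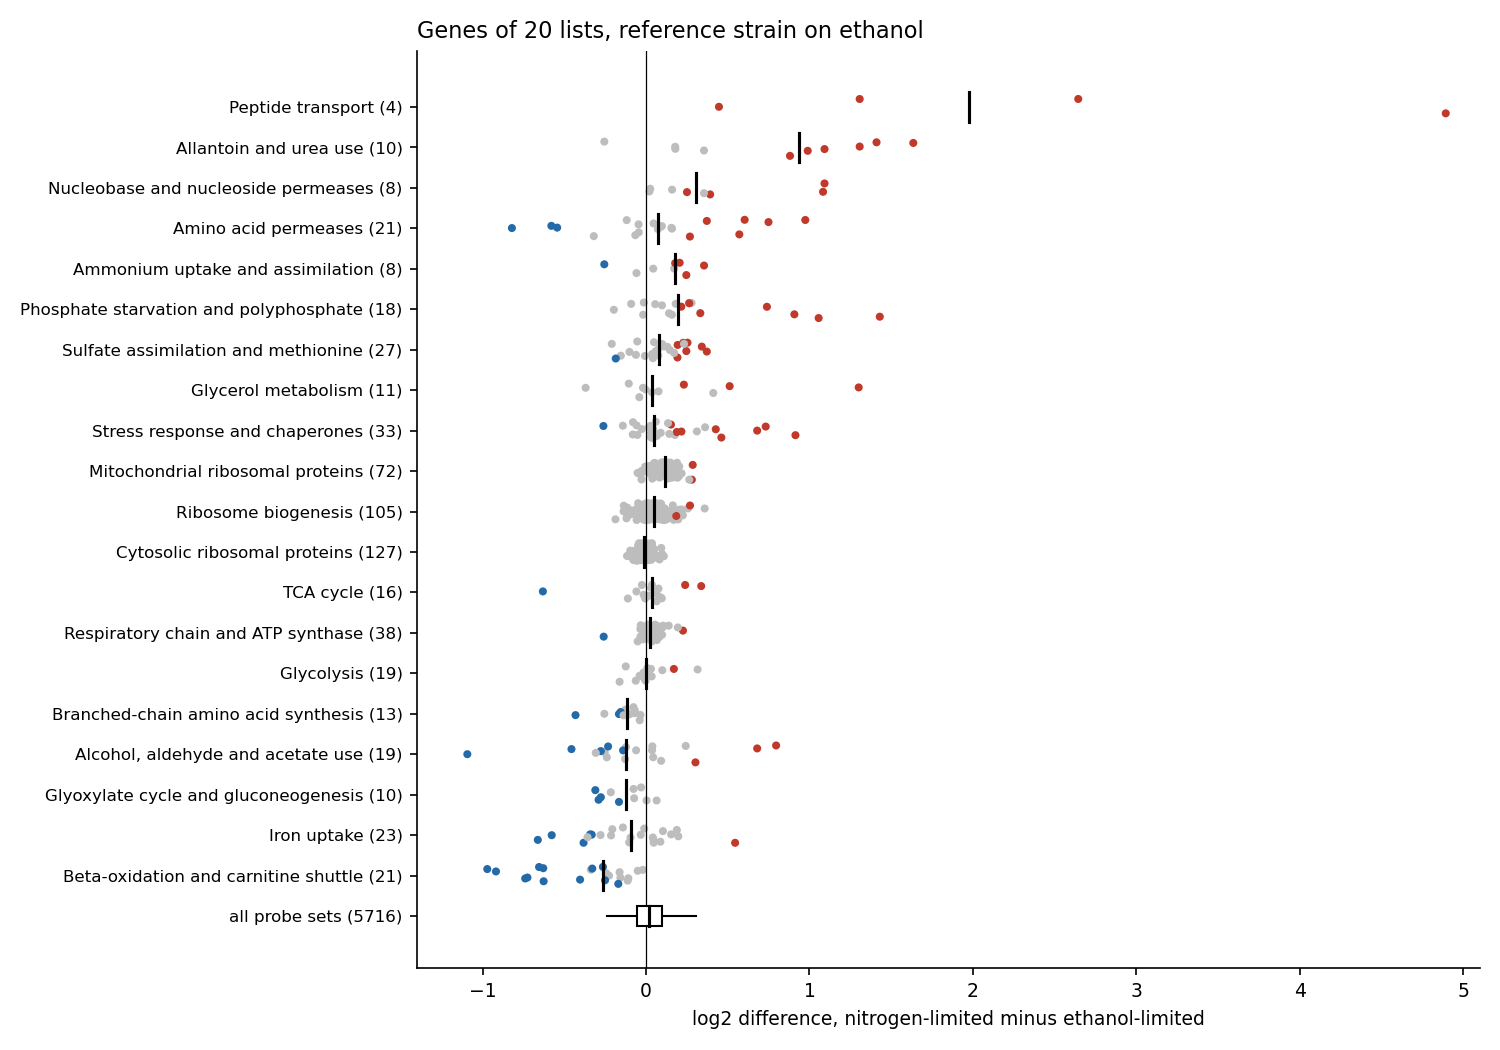
Log2 difference (nitrogen-limited minus ethanol-limited, reference strain on ethanol) of the measured genes of 20 lists, with the number of genes in brackets; red and blue dots were called higher and lower, grey dots were not called, and black bars are medians. The box at the bottom gives the median and quartiles of all 5716 probe sets and its line the 5th to 95th percentile; peptide transport (median 1.98) and allantoin and urea use (0.935) lie to the right and beta-oxidation (-0.264) to the left.

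Most stress genes were not called, with a few marked rises. Of 33 members 8 were called higher and 1 lower, with a median of 0.0506. The 9 calls dropped to 5 without ethanol-limited replicate 1, nitrogen-limited replicate 1 or nitrogen-limited replicate 2, and 4 higher ones held in all 4 fits. HSP30, a stress protein of the plasma membrane, read 12.51 and 12.47 against 13.45 and 13.36, a rise of 0.91 ± 0.04 (adjusted p = 7.22e-07), and the cytosolic catalase gene CTT1 went from 12.73 and 12.69 to 13.46 and 13.43 (0.73 ± 0.04, adjusted p = 6.19e-06). Both gaps were far wider than the spread between replicate arrays. MSN4, one of the general stress activators, rose by 0.43 ± 0.05 (0.000508). STL1, the glycerol-proton symporter gene, read 10.82 and 10.71 against 12.11 and 12.03 (1.30 ± 0.08, adjusted p = 6.19e-06), and GPP2, a glycerol phosphatase gene of the osmotic response, rose by 0.51 ± 0.05 (0.000116). They were among 3 higher calls, with none lower, in 11 genes of glycerol metabolism, whose median was 0.0367.

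None of 127 cytosolic ribosomal protein genes was called, and their differences had a median of -0.0127. Of 105 ribosome biogenesis genes 2 were called higher and none lower, with a median of 0.0499, and neither call held in all 4 fits without 1 array. Mitochondrial ribosomal protein genes leaned upwards, with 65 of 72 differences positive and a median of 0.116, but only 2 were called, and neither call held in all 4 of those fits, while the block by description numbers called 14 of them higher. All 13 genes of branched-chain amino acid synthesis had negative differences with a median of -0.119, and 3 were called lower, 1 of them whichever array was left out. BAT2, the cytosolic branched-chain transaminase gene, was that one, at 13.42 and 13.50 against 13.00 and 13.06, a fall of 0.43 ± 0.05 (0.000592). Purine and pyrimidine synthesis held 4 higher calls and 1 lower among 21, with a median of 0.0376 and with 2 calls left without ethanol-limited replicate 2 or nitrogen-limited replicate 1, and ADE2 of the purine pathway rose by 0.37 ± 0.06 (0.00407). The list of lysine and arginine synthesis held 1 lower call and no higher among 19, with a median of -0.0343. That of aromatic amino acid and histidine synthesis held 3 lower calls and no higher among 19, against 3.59% lower among all probe sets, with a median of -0.0692, and 0 or 1 of them was called with 1 array left out. Genes of thiamine and vitamin B6 synthesis held 2 higher calls among 16, with a median of 0.0536, and none without ethanol-limited replicate 1 or nitrogen-limited replicate 2.

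Iron uptake genes leaned downwards, with 5 of 23 lower, 1 higher and a median of -0.0947, and with 2 to 4 calls when 1 array was left out. Among all probe sets 3.59% were called lower and 4.62% higher, the background for every list of this paragraph. TIS11, which encodes an RNA-binding protein that degrades transcripts when iron is short, read 10.38 and 10.39 against 9.73 and 9.72, a fall of 0.66 ± 0.06 (adjusted p = 5.12e-05), and FET3, the oxidase of high-affinity iron uptake, fell by 0.38 ± 0.06 (0.00206). The low-affinity iron transporter gene FET4 differed by 0.55 ± 0.10 (0.00974), which was not called without ethanol-limited replicate 1 (0.0888) or nitrogen-limited replicate 2 (0.077). INO1, the inositol synthase gene, fell by 0.44 ± 0.05 (0.000287) and PIS1, the phosphatidylinositol synthase gene, by 0.34 ± 0.04 (0.000796), the 2 calls among 17 phospholipid genes, whose median was 0.0441. Ergosterol synthesis held 3 lower calls among 25, none of which held in all 4 fits without 1 array, with a median of -0.0133. SWI5, a late cell cycle transcription factor gene, fell by 0.33 ± 0.05 (0.00214) and was the one of 3 lower calls among 19 cell cycle genes to hold whichever array was left out. Without ethanol-limited replicate 2 it was the only call. Cell wall mannoprotein genes held 2 lower calls and no higher among 24, with a median of -0.042, and 1 call in the fits without 1 array other than nitrogen-limited replicate 1.

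Several of the largest falls lay outside these lists. HPF1, a cell wall mannoprotein gene, read 12.94 and 12.98 on the ethanol-limited arrays and 11.27 and 11.33 on the nitrogen-limited arrays, a fall of 1.66 ± 0.05 (adjusted p = 3.30e-08). It was the largest fall of a probe set with a gene symbol, and its replicates lay close together. IZH4, a membrane protein gene linked to zinc, went from 10.69 and 10.61 to 9.30 and 9.51, a fall of 1.25 ± 0.10 (3.75e-05). YIL046W-A, an open reading frame of unknown function, fell by 1.21 ± 0.14 (0.000553) and SRT1, a prenyltransferase gene, by 0.86 ± 0.11 (0.000744). DMC1, the meiotic recombinase gene, read 10.51 and 10.38 against 9.45 and 9.33, a fall of 1.05 ± 0.11 (0.000197). SPO74, of the meiotic spindle pole body, was among the dimmest called probe sets at 6.43 and 6.46 against 4.79 and 4.85, and its difference of -1.63 ± 0.38 (adjusted p = 0.029) was no longer called whichever array was left out (0.107 to 0.133). The spore wall gene OSW2 differed by -0.86 ± 0.22 (0.0374), lost in the same way (0.0888 to 0.207), and the tRNA methyltransferase gene TRM13 by -0.74 ± 0.14 (0.0109), lost without ethanol-limited replicate 2 (0.089) or nitrogen-limited replicate 1 (0.0922).

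Among rises outside the lists, RSB1, a transporter gene for sphingoid bases, went from 8.85 and 8.95 to 10.64 and 10.37 (1.60 ± 0.14, adjusted p = 7.58e-05). YBL029W, of unknown function, went from 10.53 and 10.55 to 12.05 and 11.91 (1.44 ± 0.11, adjusted p = 2.40e-05). Of the called probe sets 12 higher and 10 lower ones have no gene symbol here. The one with the largest rise read 12.29 and 12.36 against 13.51 and 13.60, and the one with the largest fall read 10.25 and 10.52 against 8.47 and 8.92.

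Nitrogen limitation was then set against glucose limitation on glucose, to ask whether the difference from carbon limitation depends on the carbon source. The carbon-limited side also changes, from ethanol to glucose limitation. A response to nitrogen limitation therefore cannot be told apart from a response to the end of carbon limitation. On glucose, nitrogen limitation against glucose limitation gave 2494 calls (43.6%), 1224 higher (21.4%) and 1270 lower (22.2%), and those arrays are not shared with the ethanol comparison. Across probe sets the 2 sets of differences correlated at 0.47, a description of points that share probe sets and are not independent. Of the 264 probe sets higher on ethanol, 189 (71.6%) were also higher on glucose, which is 15.4% of the 1224 higher there, while 36 (13.6%) were lower on glucose. Of the 205 lower on ethanol, 161 (78.5%) were also lower on glucose, 12.7% of the 1270 lower there, and 16 (7.8%) were higher on glucose. The interaction, the difference on ethanol minus that on glucose, was called for 1398 probe sets (24.5%), 800 higher (14.0%) and 598 lower (10.5%), and it shares the ethanol arrays with the calls above.

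**Figure D4:**
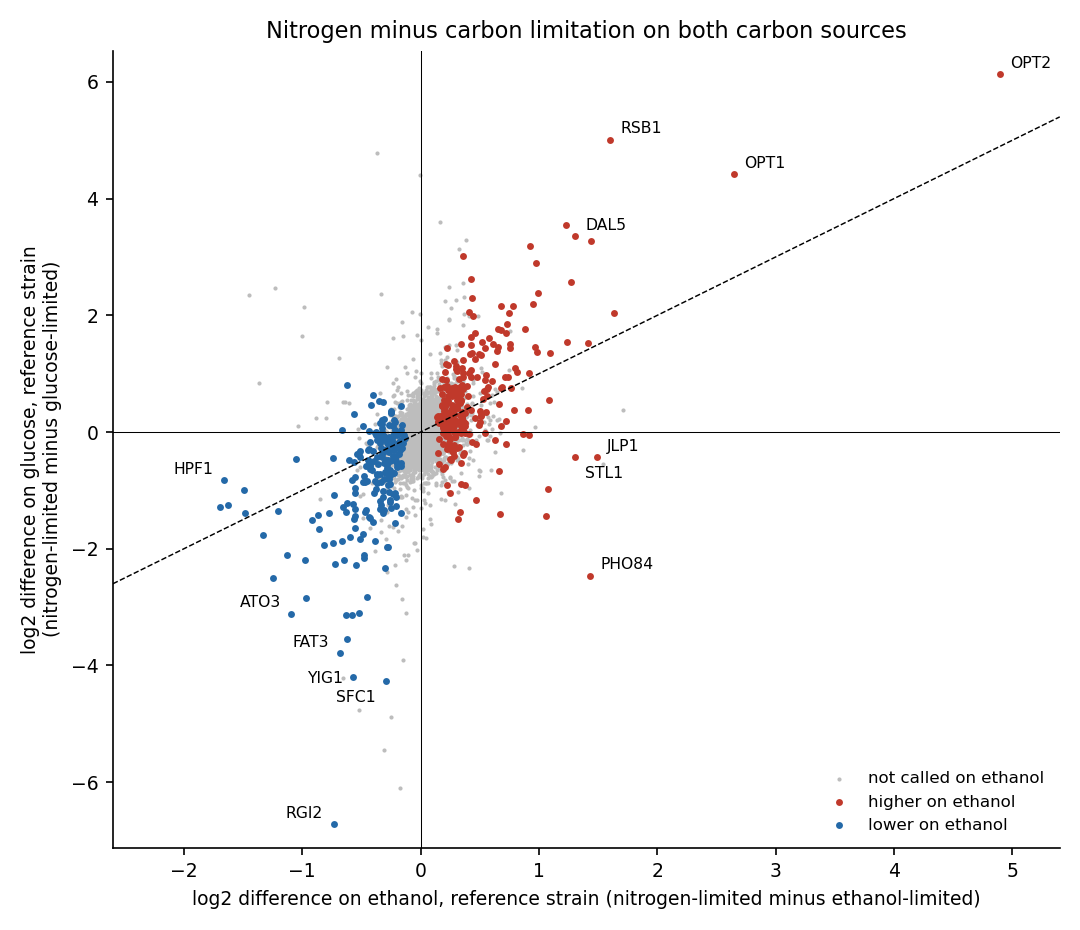
Log2 difference of nitrogen minus carbon limitation in the reference strain, on ethanol (horizontal axis) and on glucose (vertical axis), for 5716 probe sets; red and blue points were called higher and lower on ethanol, and the dashed line marks equal differences. RGI2 differed by -0.73 on ethanol and -6.72 on glucose, and PHO84 by 1.43 and -2.46.

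The 4 peptide transport genes rose on both carbon sources, and by less on ethanol. OPT2 rose by 6.13 ± 0.15 on glucose against 4.89 on ethanol, a difference between carbon sources of -1.24 ± 0.21 (adjusted p = 0.00194), and DAL5 by 3.36 ± 0.06 against 1.31 (-2.05 ± 0.09, adjusted p = 1.68e-07). For OPT2 the nitrogen-limited means were 13.09 on ethanol and 14.38 on glucose, and the carbon-limited means 8.20 and 8.25. For DAL5 the nitrogen-limited means were 14.24 and 14.37, near the top of the intensity range, and the carbon-limited means 12.93 and 11.01. All 4 peptide transport genes and 4 of 10 allantoin and urea genes had a called negative interaction, against 10.5% of all probe sets, and DAL5 is in both lists. DCG1 rose by 1.52 ± 0.11 on glucose, and its interaction of -0.11 ± 0.15 was not called (adjusted p = 0.666). RSB1 rose by 5.01 ± 0.14 on glucose against 1.60, an interaction of -3.40 ± 0.20 (9.88e-07).

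The lists of beta-oxidation, the glyoxylate cycle, the TCA cycle and respiration had lower medians on glucose than on ethanol. On glucose the beta-oxidation list had a median of -1.29 with 17 of 21 called lower, the glyoxylate and gluconeogenesis list by -1.09 with 9 of 10 lower, the TCA cycle list by -0.398 with 13 of 16 lower, and the respiratory list by -0.303 with 31 of 38 lower. On ethanol the medians were -0.264, -0.121, 0.0339 and 0.0224. Other carbon lists had medians on glucose of -0.113 for alcohol, aldehyde and acetate use, 0.0366 for glycolysis and 0.147 for glycogen and trehalose. Of all probe sets 22.2% were called lower on glucose. The interaction was called higher for 14 of 21, 9 of 10, 15 of 16 and 30 of 38 genes of the beta-oxidation, glyoxylate, TCA and respiratory lists, against 14.0% of all probe sets. It subtracts the difference on glucose, so lists that were lower there tend to a higher interaction by construction. RGI2, a gene of respiratory growth, read 14.27 and 14.25 against 13.56 and 13.48 on ethanol, a fall of 0.73 ± 0.06 (3.75e-05), and 14.27 and 14.26 under glucose limitation against 7.44 and 7.64 under nitrogen limitation on glucose, an interaction of 5.99 ± 0.08 (3.03e-11). SFC1 differed by -4.26 ± 0.08 on glucose and its interaction was 3.97 ± 0.11 (7.93e-09). Ribosome biogenesis, with 2 calls on ethanol, had 54 of 105 genes lower on glucose, against 22.2% of all probe sets. The interaction was called higher for 42 of them, against 14.0%. With 1 array left out, the count lower on glucose ran from 42 to 61 and that of the higher interaction from 28 to 47.

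The phosphate transporter gene and the sulfur genes BDS1 and JLP1 moved in opposite directions on the 2 carbon sources. PHO84 read 12.63 and 12.55 under glucose limitation and 9.94 and 10.32 under nitrogen limitation on glucose, so that it fell there and rose on ethanol, an interaction of 3.89 ± 0.19 (2.29e-07). BDS1 differed by -0.98 ± 0.05 on glucose, an interaction of 2.05 ± 0.08 (4.40e-08), and STL1 by -0.43 ± 0.08 with an interaction of 1.74 ± 0.11 (1.88e-06). JLP1 differed by -0.43 ± 0.09 on glucose, an interaction of 1.91 ± 0.12 (2.27e-06). YCT1 rose on both, by 1.54 ± 0.08 on glucose. HPF1 fell on both, by 0.83 ± 0.05 on glucose and by more on ethanol (interaction -0.83 ± 0.07, adjusted p = 8.33e-06).

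In the mutant strain the same comparison on ethanol gave 818 calls (14.3%), 373 higher (6.53%) and 445 lower (7.79%), and after median centring 663 higher and 323 lower. Without mutant ethanol-limited replicate 2 the count was 289, without mutant nitrogen-limited replicate 1 it was 525 and without mutant nitrogen-limited replicate 2 it was 260. Across probe sets its differences correlated with those of the reference strain at 0.182, again a description, over arrays that the 2 comparisons do not share. Of the 264 probe sets higher in the reference strain, 98 (37.1%) were higher in the mutant, 26.3% of the 373 there, and 18 (6.82%) were lower. Of the 205 lower ones, 59 (28.8%) were lower in the mutant, 13.3% of its 445, and 18 (8.78%) were higher. The interaction, mutant minus reference, was called for 356 probe sets (6.23%), 134 higher (2.34%) and 222 lower (3.88%), and after median centring for 214 higher and 146 lower. It shares the reference arrays, so probe sets that rose in the reference strain tend to a lower interaction by construction and those that fell to a higher one. Leaving out 1 of the 8 arrays gave between 145 and 385 such calls, with 158 and 145 without replicate 2 of the ethanol-limited and of the nitrogen-limited mutant, and 182, 167 and 165 without ethanol-limited replicate 1, ethanol-limited replicate 2 and nitrogen-limited replicate 1 of the reference strain.

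**Figure D5:**
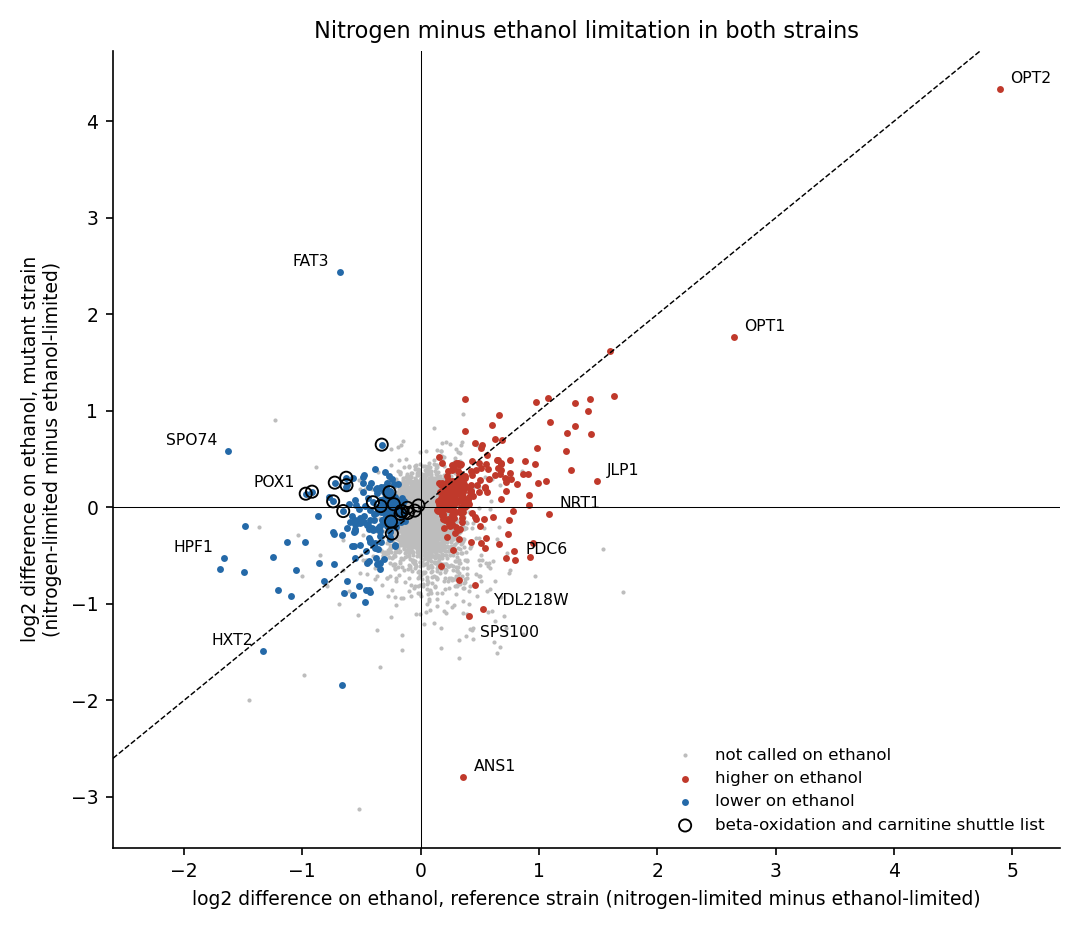
Log2 difference of nitrogen-limited minus ethanol-limited arrays on ethanol in the reference strain (horizontal axis) and in the mutant strain (vertical axis) for 5716 probe sets; red and blue points were called higher and lower in the reference strain, black circles mark the beta-oxidation and carnitine shuttle list, and the dashed line marks equal differences. OPT2 lies at 4.89 and 4.33, FAT3 at -0.68 and 2.44, and ANS1 at 0.36 and -2.80.

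Several transporter genes moved alike in direction in both strains. OPT2 rose by 4.33 ± 0.15 in the mutant, and its interaction of -0.56 ± 0.21 was not called (adjusted p = 0.153). PHO84 rose by 1.12 ± 0.13 (interaction -0.31 ± 0.19, adjusted p = 0.358) and HXT2 fell by 1.49 ± 0.06 (interaction -0.16 ± 0.08, adjusted p = 0.302). DUR3 and OPT1 rose in the mutant by less, with interactions of -0.48 ± 0.07 (0.00342) and -0.88 ± 0.15 (0.00869). JLP1 and NRT1 differed by 0.27 ± 0.09 and -0.07 ± 0.09 in the mutant, neither called, with interactions of -1.21 ± 0.12 (0.000423) and -1.15 ± 0.12 (0.00054). HSP30 read 12.37 and 12.35 against 12.40 and 12.38 in the mutant, a difference of 0.03 ± 0.04 that was not called, and the interaction was -0.89 ± 0.06 (1.81e-05).

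The fall of fatty acid genes differed between the strains. All 21 members of the beta-oxidation list had a negative difference in the reference strain, which the interaction subtracts. A higher interaction of this list is thus favoured by construction, and the share of all probe sets is no fair background for it. In the mutant the median of the beta-oxidation list was 0.0194 against -0.0345 for all probe sets, with 4 members called higher and none lower (1 to 3 higher with 1 mutant array left out), and the interaction was called higher for 9 of the 21, against 2.34% of all probe sets, and for between 7 and 9 when 1 of the 8 arrays was left out. IDP3 differed by 0.06 ± 0.04 in the mutant (interaction 0.80 ± 0.06, adjusted p = 4.31e-05). Under ethanol limitation the mean of IDP3 was 11.38 in the mutant against 12.33 in the reference strain, and that of POX1 11.41 against 12.39. Under nitrogen limitation the means were 11.44 against 11.59 for IDP3 and 11.55 against 11.42 for POX1. For these genes the interaction thus also holds a gap between the strains under ethanol limitation, which was not tested. FAA1 read 12.76 and 12.77 against 13.39 and 13.44 in the mutant, a rise of 0.65 ± 0.03, against a fall of 0.33 in the reference strain (interaction 0.98 ± 0.05, adjusted p = 2.03e-06). FAT3 read 10.50 and 10.66 on the ethanol-limited and 13.00 and 13.04 on the nitrogen-limited arrays of the mutant, a rise of 2.44 ± 0.07, and its interaction of 3.12 ± 0.10 (1.24e-07) was the largest positive one among the called genes of the reference strain. POX1 had an interaction of 1.11 ± 0.21 (0.0146), which passed in 5 of the 8 fits without 1 array.

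Other genes turned downwards in the mutant. ANS1, which encodes a putative cell surface protein, read 12.30 and 12.39 against 12.72 and 12.69 in the reference strain, and 12.36 and 12.32 against 9.54 and 9.55 in the mutant, an interaction of -3.16 ± 0.11 (1.87e-07). Its rise of 0.36 ± 0.08 in the reference strain (0.0194) was not called whichever of the 4 arrays was left out (0.0539 to 0.131). The spore wall gene SPS100 and YDL218W, of unknown function, rose by 0.41 ± 0.05 and 0.53 ± 0.05 in the reference strain and fell by 1.13 ± 0.05 and 1.05 ± 0.05 in the mutant. PDC6 fell by 0.55 ± 0.08 there, an interaction of -1.34 ± 0.12 (0.000144).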

How the data were processed

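RNA from 16 yeast chemostat samples was measured on Affymetrix expression arrays, 1 array per sample. The authors deposited 1 table of normalized intensity values on a linear scale, with GCRMA named in the submitters' processing notes and its version not given in the sources used here. GCRMA corrects background by probe sequence and is commonly run with a step that equalises the distributions of the arrays. The deposited distributions were close but not equal. Median log2 intensities lay between 11.91 and 12.01, and the largest intensities between 32378.51 and 35910.938. Differences were read as relative to the bulk of the probe sets, and a shift shared by most transcripts could not be seen. The number of arrays limits the precision. The values were taken to log2 without an offset, and 5 values at the lowest value of 1 were kept.

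Groups and replicate numbers came from the titles. The paper linked to the series describes another data set, so the labels alone were followed. Means of 8 groups were fitted over the 16 arrays with limma 3.58.1 in R 4.3.3 (8 residual and 2.01 prior degrees of freedom), and p-values were adjusted by Benjamini-Hochberg over the 5716 probe sets, with a threshold of 0.05. The contrasts were nitrogen minus ethanol limitation in the reference strain, the same in the mutant, nitrogen minus glucose limitation on glucose, and both interactions. The fit was also run on simulated data with known differences. Their noise was independent between arrays, so that run cannot show whether the calls are calibrated for these arrays. Probe sets were named through a platform annotation with symbols updated from RefSeq: 5498 had 1 symbol, 218 none and 0 several. A gene with several probe sets was represented by the brightest.

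The genes named were the 15 largest rises and 15 largest falls that were called with arrays that did not overlap, up to 4 of the largest called members of each gene list, and for each interaction 5 genes in each direction among those called in both. Several called list members that this rule also takes in are covered only by their list's counts. The other genes given with values are list members that were not called or are defining members of their list, chosen after their values were seen. The lists and the comparison were chosen with earlier results of these data known. List members without a probe set, 19 in all, were not analysed here. Alternatives were quantile normalization, median centring, an offset of 50, the brighter 2858 probe sets, fewer arrays in the fit, a trended spread, a replicate block, a minimum log2 difference of 1 and leaving out each array. A planned search of promoters was not run.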

Additional observations from a re-analysis of the deposited data

Results flagged for a closer look

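The difference between nitrogen and carbon limitation depended on the carbon source for 1398 probe sets and on the strain, on ethanol, for 356, by limma's test of the interaction. Each interaction also holds any difference on the carbon-limited side, which it cannot tell apart from one on the nitrogen-limited side. The following genes had the largest interactions among those that also changed on ethanol in the reference strain, and every fitted value below is a log2 difference of differences.

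For the carbon source, taken as ethanol minus glucose, the positive ones were RGI2 (5.99), SFC1 (3.97), PHO84 (3.89), YIG1 (3.62) and FAT3 (3.10). YIG1 was called lower on ethanol, but not without ethanol-limited replicate 1 (adjusted p = 0.0883) or nitrogen-limited replicate 2 (0.0874), and SFC1 was not called there whichever array was left out (0.155 to 0.2). The negative ones were RSB1 (-3.405), ANS1 (-2.66), HMS1 (-2.26), WSC4 (-2.19) and DAL5 (-2.05). HMS1, a transcription factor gene, was called higher on ethanol, but not without ethanol-limited replicate 1 (0.0626) or nitrogen-limited replicate 1 (0.0641).

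For the strain, taken as mutant minus reference, the positive ones were FAT3 (3.12), SPO74 (2.21), HPF1 (1.13), POX1 (1.11) and DCI1 (1.08). The interaction of SPO74 was called in none of the 8 fits without 1 array, with adjusted p up to 0.108, and that of POX1 in 5 of 8. The negative ones were ANS1 (-3.16), YDL218W (-1.575), SPS100 (-1.54), HMS1 (-1.44) and PDC6 (-1.34).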

How the results depend on the processing

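Each count of calls was refitted under the alternatives that apply to it, and no direction of a named gene reversed in those fits. With arrays of the compared groups only, the counts were 16 for the reference strain on ethanol, 858 for the interaction with carbon source, 128 for the interaction with strain, 119 for the mutant and 1341 for glucose. With the reference strain alone they were 178 on ethanol, 858 for the interaction with carbon source and 1999 for glucose. The brighter 2858 probe sets held 302, 812, 521 and 1356 calls for ethanol, carbon source, mutant and glucose. A minimum log2 difference of 1 left 28, 191, 36, 29 and 262 calls for ethanol, carbon source, strain, mutant and glucose. Leaving out 1 array gave 240 to 282 on ethanol, 1109 to 1405 for carbon source, 145 to 385 for strain, 260 to 813 for the mutant and 2050 to 2341 for glucose. After quantile normalization the mutant held 599 higher and 324 lower calls and the strain interaction 250 and 147.

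The main fit did not pair the samples by the titles' replicate numbers. Same-numbered deviations correlated between -0.68 and 0.66 over the pairs of groups, and at 0.58 for the 2 groups compared. A replicate effect shared by those 2 groups is therefore possible, and the main fit leaves it in the spread. In the reference strain the glucose-limited arrays carry opposite numbers in titles and descriptions, and the 3 correlations of that group with the other reference groups were negative by the titles. The pairs among the other reference groups were positive (0.42, 0.58 and 0.66), as were those among the mutant groups (0.02 to 0.29). With the replicate block the counts were 435, 1372, 323, 778 and 2464 for ethanol, carbon source, strain, mutant and glucose. A replicate block by the numbers in the descriptions within each strain, chosen after seeing the data, gave 871, 2145, 1037 and 1826 for the first 4. Of 119 named genes 13 were called in every setting, 105 lost the call in the fit on the compared arrays only and 59 in that on the reference strain only. The cause was not tested. Both fits have fewer arrays from which to estimate the spread, and both leave out the mutant arrays. Median absolute differences between replicate arrays were 0.0863 to 0.108 in the reference groups and 0.0460 to 0.0783 in the mutant groups. The main fit used a shared spread for both strains, so its errors for the reference strain also rest on the mutant arrays.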
